A study of Mus musculus with 8 samples.

Results

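The 10 genes described here mark tissue-resident, type 1 innate lymphoid (ILC1) or immature NK cells: *Itga1*, *Cxcr6*, *Cd200r1*, *Il7r*, *Kit*, *Zfp683*, *Ahr*, *Rora*, *Tcf7* and *Emb*. They were chosen by symbol from that known role, with earlier results of these data known. They are 10 of the 48321 gene symbols listed for each library. Of the 10, 9 had enough reads to be tested, among 12595 genes in all, and *Zfp683* did not.

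NK cells were sorted from lung and spleen as CD45+ TCRb- NK1.1+ cells and taken for RNA-seq without culture. All mice were of the C57/Bl6 background. Mice were either wild type (*Wt*) or homozygous for a CRISPR/Cas9 deletion of the *Ccl5* proximal enhancer *Ccl5-PE* in the germline (*Ccl5*ΔPE/ΔPE, here KO), so that every cell of the KO mice carried the deletion, and no group received a treatment. The 4 groups, lung *Wt*, lung KO, spleen *Wt* and spleen KO, had 2 libraries each. The comparisons ask how the loss of the enhancer and the organ of residence bear on the RNA of NK cells. The paper states that its mouse lines were kept and bred apart and that sexes were mixed. Effects of genotype and of breeding line therefore cannot be told apart. Whether both libraries of 1 group derive from different animals is not in the labels, so p-values measure only the spread between libraries, which may be technical.

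NK cells and ILC1 share NK1.1, so that a sort on NK1.1 holds both. Circulating NK cells mature from CD27+ to CD11b+ cells and lose the receptors IL-7Rα and KIT as they do so, whereas ILC1 and resident NK cells hold on to tissue through the collagen receptor CD49a and the chemokine receptor CXCR6. HOBIT, the product of *Zfp683*, keeps lymphocytes resident in liver and other tissues, AHR and RORα serve innate lymphoid cells of several kinds, and TCF-1, the product of *Tcf7*, acts in the early progenitors of the lineage. In sorted bulk RNA, fewer cells of a type and less RNA per cell cannot be told apart.

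Between 3132963 and 26482366 reads were counted on genes per library. Without TMM scaling, 3 reads corresponded to between 0.113 and 0.958 CPM (reads per 1000000 reads on genes). The CPM of genes given below use totals scaled by TMM, unless stated. *Ccl5* stood at 19518 and 18350 CPM in lung *Wt* against 2992 and 3195 in lung KO, and at 16679 and 15664 CPM in spleen *Wt* against 2676 and 2432 in spleen KO, as the labels have it. The libraries of a group lay close together (common biological coefficient of variation, 2.5%), with a chi-square per degree of freedom of 1.22–1.47 between the libraries of a group, where counting noise alone gives 1, and 55.6% of all genes tested passed a false discovery rate (FDR) of 0.05 in lung. The KO effect moved with the GC content of genes (Spearman's rho across 12223 genes, 0.292 in lung and -0.274 in spleen). All 12 defining NK markers were present in every group, with a summed level of 54919–56813 CPM for lung *Wt* against 44148–44670 CPM for lung KO, and 40560–41457 CPM for spleen *Wt* against 52886–55558 CPM for spleen KO. In lung KO 2 of them were higher and 7 lower, and in spleen KO 10 were higher and 2 lower. The part of this shift in the results below was not tested. Of the other cells that express the genes described here, the ILC2 and ILC3 cytokine genes *Il5*, *Il13*, *Il22* and *Il17a* were at 0 in all groups, as were the mast cell genes *Fcer1a*, *Ms4a2*, *Tpsab1*, *Tpsb2* and *Mcpt4*. *Cpa3*, another mast cell and basophil gene, had group means of 1.51–3.93 CPM. The 13 ILC2 or ILC3 markers summed to 21.2–25.4, 28.2–29.9, 41.0–43.0 and 25.5–28.1 CPM in lung *Wt*, lung KO, spleen *Wt* and spleen KO. Most of this was *Ncoa7*, which rose in lung KO (0.28 on the log2 scale, adjusted p = 0.0425) and fell in spleen KO (-0.71, adjusted p = 7.8e-08). *Il1rl1* had group means of 0.475–1.77 CPM. *Ccr6* and *Il23r* had 1.63 and 0.900 CPM in spleen *Wt* and 0.786 and 0 CPM in spleen KO, with 0 in both lung groups. The 10 lung structural markers summed to 326–336 CPM in lung *Wt*, 458–498 CPM in lung KO and 65.4–75.8 CPM in spleen, where 7 of them were at 0. Of the 7 tested, 4 were higher and 1 lower in lung KO than in lung *Wt*.

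Promoter sequences are shown for *Il7r* and *Cxcr6*, which fell in lung KO, *Emb*, which rose in KO in both organs, and *Itga1*, which fell in spleen KO, to give the DNA just before their start sites. Each is the 250 bases upstream of a RefSeq start (GRCm38.p6), written 5′ to 3′ on the strand of the gene. RefSeq promoters were at hand for 7 of the 10 genes. Capitals mark matches, on either strand, to the cores of a RUNX site (TGTGGT), a T-box half-site (AGGTGT), an AHR-ARNT element (GCGTG), a ROR half-site (AGGTCA) or a TCF/LEF site (CTTTGA).
Il7r, chr15:9529877-9530126, minus strand: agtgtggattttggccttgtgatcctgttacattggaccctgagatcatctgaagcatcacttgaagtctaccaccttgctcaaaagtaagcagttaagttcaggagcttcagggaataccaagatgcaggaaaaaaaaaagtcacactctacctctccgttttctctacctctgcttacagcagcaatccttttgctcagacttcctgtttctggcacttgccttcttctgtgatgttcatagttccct
Cxcr6, chr9:123806227-123806476, plus strand: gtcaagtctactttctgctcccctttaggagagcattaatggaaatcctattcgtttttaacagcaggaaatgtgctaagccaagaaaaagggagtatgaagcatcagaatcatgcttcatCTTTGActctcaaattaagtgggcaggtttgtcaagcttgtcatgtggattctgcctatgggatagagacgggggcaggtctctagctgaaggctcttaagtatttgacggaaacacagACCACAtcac
Emb, chr13:117220323-117220572, plus strand: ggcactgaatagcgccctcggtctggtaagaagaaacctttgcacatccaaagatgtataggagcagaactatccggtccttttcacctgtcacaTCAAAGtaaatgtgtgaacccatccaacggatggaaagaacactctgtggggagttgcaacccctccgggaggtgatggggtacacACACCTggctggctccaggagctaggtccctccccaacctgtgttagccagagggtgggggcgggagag
Itga1, chr13:115101965-115102214, minus strand: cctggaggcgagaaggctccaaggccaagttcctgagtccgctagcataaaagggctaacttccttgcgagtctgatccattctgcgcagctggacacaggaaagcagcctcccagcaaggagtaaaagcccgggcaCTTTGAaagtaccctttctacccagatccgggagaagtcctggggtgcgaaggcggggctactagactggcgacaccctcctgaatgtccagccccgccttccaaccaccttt
The *Cxcr6* window held a TCF/LEF core that began 129 bases before the start and a RUNX core that began 10 bases before it, on the reverse strand. The *Emb* window held a TCF/LEF core at 155 and a T-box core at 69 bases before the start, both on the reverse strand, and the *Itga1* window a TCF/LEF core at 113 bases. None of the 5 cores was found in the *Il7r* window. Among 32851 promoters of this length, 14.0% held the RUNX core, 11.8% the T-box core, 28.2% the AHR-ARNT core, 14.0% the ROR core and 13.8% the TCF/LEF core, so that single matches are common. The *Il7r* and *Emb* windows lie wholly inside the span that GENCODE gives each gene, so these bases are upstream of the RefSeq start only.

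Per kilobase of exon (RPKM, the CPM divided by the exon length in kilobases), *Tcf7* was the highest of the 10 genes in every group, from a mean of 24.9 RPKM in lung *Wt* to 69.5 RPKM in spleen KO. *Emb*, at 12.1–44.3 RPKM, *Cxcr6*, at 9.79–25.2 RPKM, and *Il7r*, at 3.63–19.8 RPKM, followed. *Kit* lay between 2.13 and 6.38 RPKM, *Cd200r1* between 1.04 and 3.13 RPKM, and *Rora* between 1.28 and 2.03 RPKM. *Ahr* and *Itga1* were low, at 0.477–2.86 and 0.164–0.564 RPKM. Thus a TCF-1 gene of early progenitors was at a level well above the gene for CD49a in each of the 8 libraries.

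**Figure D1:**
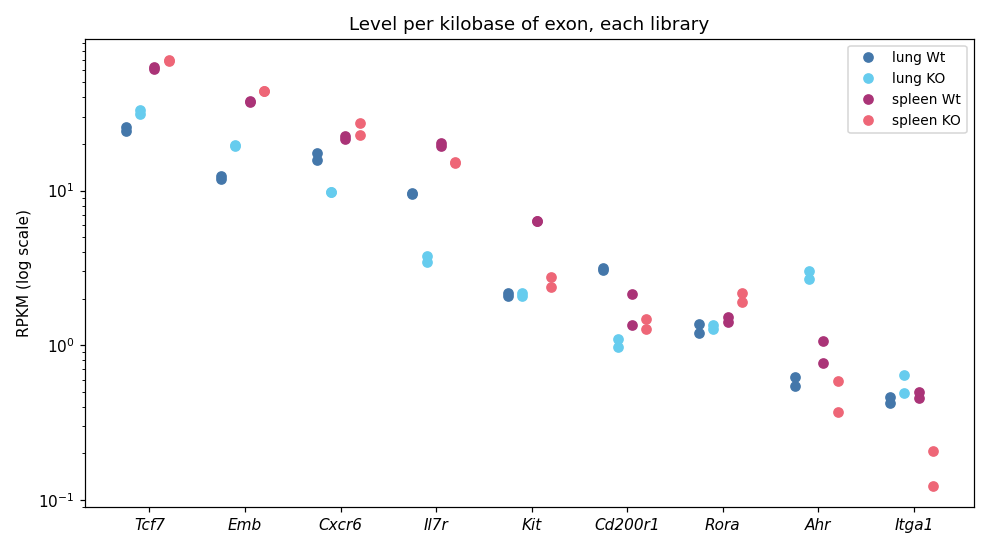
Level per kilobase of exon (RPKM, log axis) of the 9 genes tested, ordered by mean level. Each point is 1 library and colours are the 4 groups, with *Tcf7* between 24.9 and 69.5 RPKM (group means) at the left and *Itga1* between 0.164 and 0.564 RPKM at the right. *Zfp683*, which had libraries at 0, is not drawn.

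*Itga1* (ENSMUSG00000042284, GRCm38 chr13:114953096-115101964, minus strand) encodes the α1 chain of the collagen-binding integrin CD49a, a surface mark of ILC1 and resident NK cells. It stood at 7.83 and 8.55 CPM in lung *Wt*, 11.9 and 9.12 CPM in lung KO, 9.24 and 8.53 CPM in spleen *Wt*, and 2.29 and 3.83 CPM in spleen KO. Both spleen KO libraries were below all 6 others, which lay close together. In spleen, *Itga1* was 0.344 times its *Wt* level (log2 fold change -1.27, SE 0.21, adjusted p = 3.1e-06, edgeR's quasi-likelihood test, adjusted by Benjamini-Hochberg for all genes tested, as for every adjusted p given here). In lung the change was 0.34 on the log2 scale (SE 0.20, adjusted p = 0.153). The spleen KO level rests on 7 and 100 reads, and without the deeper of the pair of libraries the log2 fold change was -1.93. Of the 50-base words in *Itga1* exons, 3.27% also occur in other genes. *Itgb1*, which encodes the β1 chain that pairs with CD49a, was higher in lung KO than in lung *Wt* (1132 against 903.1 CPM, log2 fold change 0.33, adjusted p = 3.6e-09) and lower in spleen KO than in spleen *Wt* (929.3 against 1156 CPM, log2 fold change -0.32, adjusted p = 4.6e-09).

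*Cxcr6* (ENSMUSG00000048521, chr9:123806475-123811760, plus strand) encodes the receptor for CXCL16, which holds ILC1 and resident lymphocytes in liver and lung. Its promoter is shown above. Lung *Wt* libraries had 33.7 and 30.6 CPM, lung KO libraries 19.0 and 18.8 CPM, spleen *Wt* libraries 41.5 and 43.3 CPM, and spleen KO libraries 44.4 and 53.0 CPM. No group overlapped another, and the order ran from spleen KO down to lung KO. *Cxcr6* fell in lung KO to 0.588 times the *Wt* level (log2 fold change -0.79, SE 0.12, adjusted p = 1e-06) and rose by 0.27 on the log2 scale in spleen KO (SE 0.08, adjusted p = 0.00584). The rise in spleen was no longer called without the deeper spleen KO library (0.06, adjusted p = 0.801), or with an offset for GC content (0.17, adjusted p = 0.0734). Its ligand gene *Cxcl16* was near the floor, at 1.96, 1.29, 0.483 and 0.508 CPM (means of lung *Wt*, lung KO, spleen *Wt* and spleen KO), and passed the test in neither organ.

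*Cd200r1* (ENSMUSG00000022667, chr16:44765736-44794978, plus strand) encodes the receptor for CD200, an inhibitory receptor that marks ILC1 among NK1.1+ cells. It had 10.3 and 10.6 CPM in lung *Wt*, 3.27 and 3.67 CPM in lung KO, 4.50 and 7.13 CPM in spleen *Wt*, and 4.24 and 4.98 CPM in spleen KO. The lung *Wt* libraries stood above all others and the lung KO libraries below all others, while the spleen groups overlapped. *Cd200r1* fell in lung KO to 0.332 times the *Wt* level (log2 fold change -1.57, SE 0.24, adjusted p = 1.1e-06), and in spleen the value was -0.36 (SE 0.21, adjusted p = 0.157). The value in spleen depended on 1 library, since it was 0.12 without spleen *Wt* replicate 2 (adjusted p = 0.824) and -0.55 without spleen *Wt* replicate 1 (adjusted p = 0.0431). *Cd200r1* shares 1.16% of its 50-base words with 2 other genes, and its relative *Cd200r4* had 816–7530 reads where *Cd200r1* had 13–130. Transcripts of the ligand gene *Cd200* rose in lung KO (2.22 to 4.87 CPM, log2 fold change 1.18, adjusted p = 0.00279) and fell in spleen KO (3.25 to 0.287 CPM, log2 fold change -2.67, adjusted p = 6.4e-07). *Dok1* and *Dok2*, adaptors that act downstream of CD200R1, also rose in lung KO (1.35 and 0.61 on the log2 scale, adjusted p = 7.9e-08 and 1.4e-15) and fell in spleen KO (-0.74 and -0.73, adjusted p = 5.6e-05 and 2.2e-17).

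*Il7r* (ENSMUSG00000003882, chr15:9505788-9530176, minus strand) encodes IL-7Rα (CD127), the receptor chain for IL-7 that is high on innate lymphoid cells and on immature and thymic NK cells. Lung *Wt* libraries had 44.3 and 44.8 CPM and lung KO libraries 16.2 and 17.7 CPM. Spleen *Wt* libraries had 90.2 and 94.9 CPM and spleen KO libraries 70.2 and 71.5 CPM. All 4 groups were apart, with spleen *Wt* highest and lung KO lowest, a range of 5.47-fold between group means. *Il7r* fell in both organs, to 0.380 times *Wt* in lung (log2 fold change -1.38, SE 0.11, adjusted p = 3.3e-13) and 0.766 times *Wt* in spleen (-0.39, SE 0.06, adjusted p = 2.4e-06). *Il2rg*, which encodes the common γ chain that pairs with IL-7Rα, fell in lung KO (2584 to 1922 CPM, log2 fold change -0.43, adjusted p = 3.7e-13) and rose in spleen KO (1821 to 2350 CPM, 0.37, adjusted p = 1.9e-11). Among the kinases and factors behind both chains, *Jak1*, *Jak3* and *Stat5a* rose in lung KO (0.28, 0.96 and 0.56 on the log2 scale, adjusted p = 1.4e-08, 0.00032 and 0.00127) and fell in spleen KO (-0.12, -0.50 and -0.54, adjusted p = 0.00245, 0.0187 and 0.00025). For *Jak3* in spleen the groups overlapped, with 12.1 and 7.35 CPM in KO against 10.7 and 11.6 CPM in *Wt*, so only the deeper KO library was low, and the ratio of the means was 0.871. *Stat5b* fell in lung KO (-0.31, adjusted p = 0.00397) and had a value of -0.11 in spleen (adjusted p = 0.294).

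*Kit* (ENSMUSG00000005672, chr5:75574916-75656722, plus strand) encodes CD117, the receptor for stem cell factor that progenitors, immature NK cells, other innate lymphoid cells and mast cells carry. It had 19.3 and 18.7 CPM in lung *Wt*, 19.4 and 18.5 CPM in lung KO, 57.0 and 56.7 CPM in spleen *Wt*, and 21.2 and 24.7 CPM in spleen KO. Only the spleen *Wt* libraries stood high, and the lung groups overlapped. *Kit* fell in spleen KO to 0.405 times the *Wt* level (log2 fold change -1.23, SE 0.09, adjusted p = 1.4e-14). In lung the value was -0.01 (SE 0.13, adjusted p = 0.944), and its sign turned to 0.08 when libraries were scaled by their totals alone. The gene whose pattern over the 8 libraries was most like that of *Kit* was *Cd3e*, a chain of the T cell receptor complex, with 7.71 and 6.99 CPM in lung *Wt*, 6.35 and 7.48 CPM in lung KO, 32.0 and 32.5 CPM in spleen *Wt*, and 7.51 and 11.1 CPM in spleen KO. The 15 T cell markers together, several of which NK cells also express, summed to 1055–1062, 965–997, 1179–1214 and 1240–1300 CPM in lung *Wt*, lung KO, spleen *Wt* and spleen KO. Of the 9 tested, 3 were higher and 1, *Cd3e*, lower in spleen KO, beside 28.2% and 28.9% of all genes. *Cd3d* and *Cd3g* had means of 60.7 and 61.2 CPM in spleen *Wt* and 68.3 and 56.4 CPM in spleen KO. *Cd8b1* was at 0 in both spleen groups. *Cd8a*, *Cd5* and *Themis* had means of 1.59, 0.425 and 1.15 CPM in spleen *Wt* and were at 0 in spleen KO. The part of T cells in the *Kit* result was not tested. The 10 mast cell or basophil markers summed to 2.25–2.92 CPM in spleen *Wt* and 3.60–4.90 CPM in spleen KO, with 8 of the 10 at 0 in both. The ILC2 or ILC3 markers, given above, were highest in spleen *Wt*, as *Kit* was, and the part of these cells was not tested. *Kitl*, the gene for stem cell factor, had 1.24 and 1.04 CPM in lung *Wt* and 10.03 and 6.94 CPM in lung KO. The 4 spleen libraries had no read of it. *Kitl* passed the filter on low counts only through the lung KO libraries, where it was high, so no test of it is given. The summed level of the lung structural markers was also higher in lung KO, though not every marker was. Their part in the level of *Kitl* was not tested.

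*Zfp683* (ENSMUSG00000049410, chr4:134053838-134058996, plus strand) encodes HOBIT. It had 0, 0, 1 and 0 reads in the lung libraries (*Wt*, then KO) and 2, 5, 2 and 22 reads in the spleen libraries, and the 22 reads came from the deepest library. Over the 24417645 reads on genes in lung, 1 read is 0.0410 CPM without TMM scaling (exact Poisson 95% interval, 0.00104–0.228), and over the 41797422 reads in spleen, 31 reads are 0.742 CPM (0.504–1.05). Intervals and floors cover counting error only. *Zfp683* was thus at or below the floor of 3 reads in 6 of the 8 libraries, and its genotype difference was not detectable at this depth. *Prdm1*, which encodes the related repressor BLIMP-1, was well above the floor, with 31.6 and 33.7 CPM in lung *Wt*, 19.0 and 16.9 CPM in lung KO, 15.7 and 15.5 CPM in spleen *Wt*, and 23.8 and 22.7 CPM in spleen KO. It fell in lung KO (log2 fold change -0.86, SE 0.12, adjusted p = 1.3e-07) and rose in spleen KO (0.55, SE 0.12, adjusted p = 0.00011).

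*Ahr* (ENSMUSG00000019256, chr12:35497974-35535038, minus strand) encodes the aryl hydrocarbon receptor, a ligand-activated factor that maintains ILC1, ILC3 and CD49a+ NK cells. It had 3.85 and 3.37 CPM in lung *Wt*, 16.6 and 18.6 CPM in lung KO, 4.75 and 6.54 CPM in spleen *Wt*, and 2.29 and 3.60 CPM in spleen KO. The lung KO libraries stood apart above all others, and lung *Wt* overlapped spleen KO. *Ahr* rose in lung KO to 4.88 times the *Wt* level (log2 fold change 2.26, SE 0.21, adjusted p = 3e-11), which was the change of greatest size among the 9 genes in either organ. In spleen KO it fell by 0.79 on the log2 scale (SE 0.23, adjusted p = 0.00384), a value that was -0.46 without spleen *Wt* replicate 2 (adjusted p = 0.339) and -1.37 without spleen KO replicate 2. Lung epithelium and endothelium also express *Ahr*, and the lung structural markers stood at 326–336 CPM in lung *Wt* and 458–498 CPM in lung KO. *Sftpc*, the most abundant of them, had a mean of 153.9 CPM in lung *Wt* and 266.6 CPM in lung KO, and *Sftpa1* 12.7 and 46.5 CPM. The airway gene *Scgb1a1* had 85.3 and 62.2 CPM, and of the endothelial genes *Cldn5* had 4.53 and 12.1 CPM and *Cdh5* 8.999 and 6.23 CPM. Thus the markers did not share a direction, and the part of these cells in the *Ahr* result was not tested. Of the genes of the AHR pathway, the dimer partner *Arnt* had values of -0.02 in lung (adjusted p = 0.901) and -0.17 in spleen (adjusted p = 0.155). The AHR target *Tiparp* rose by 0.25 in lung KO (adjusted p = 0.0132), with 0.12 in spleen (adjusted p = 0.19), and the targets *Ahrr* and *Cyp1b1* were at 0 in all 4 groups.

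*Rora* (ENSMUSG00000032238, chr9:68653786-69388246, plus strand) encodes the nuclear receptor RORα, needed for ILC2 and expressed in ILC1. It had 15.7 and 17.9 CPM in lung *Wt*, 17.6 and 16.6 CPM in lung KO, 18.5 and 19.98 CPM in spleen *Wt*, and 28.4 and 24.8 CPM in spleen KO. The lung groups overlapped, and the spleen KO libraries were the highest. Spleen KO was 1.38 times spleen *Wt* (log2 fold change 0.38, SE 0.11, adjusted p = 0.00355), a call lost with the offset for GC content (0.23, adjusted p = 0.0763). In lung the value was 0.05 (SE 0.14, adjusted p = 0.782), and -0.08 without lung *Wt* replicate 1. *Nr1d2*, a REV-ERB repressor that binds the same DNA elements as RORα, had values of 0.01 in lung and -0.01 in spleen (adjusted p = 0.922 and 0.957). The other REV-ERB gene, *Nr1d1*, had few reads, none in both *Wt* libraries of lung, 8 and 3 in lung KO, 8 and 18 in the spleen *Wt* libraries, and 0 and 1 in spleen KO. In spleen its mean was 2.05 CPM in *Wt* and 0.0192 CPM in KO, and in lung 0 and 1.02 CPM. *Nr1d1* needed the spleen *Wt* libraries, where it was high, to pass the filter on low counts, so no test of it is given.

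*Tcf7* (ENSMUSG00000000782, chr11:52252371-52283014, minus strand) encodes TCF-1, a factor of innate lymphoid progenitors and immature NK cells that falls as NK cells mature. It had 63.3 and 67.6 CPM in lung *Wt*, 82.3 and 87.3 CPM in lung KO, 166.4 and 161.1 CPM in spleen *Wt*, and 181.8 and 182.9 CPM in spleen KO. The 4 groups were apart, with both spleen groups above both lung groups and KO above *Wt* in each organ. *Tcf7* rose by 0.39 in lung KO (SE 0.07, adjusted p = 1.6e-05) and by 0.16 in spleen KO (SE 0.05, adjusted p = 0.00616), both on the log2 scale. With the offset for GC content these values were 0.20 and 0.29, and the call in spleen was lost without either spleen *Wt* replicate 2 or spleen KO replicate 2 (adjusted p = 0.127 and 0.119). The TCF-1 relative *Lef1* had values of 0.02 and -0.08 (adjusted p = 0.796 and 0.242). *Ctnnb1*, which encodes the coactivator β-catenin, fell in lung KO (-0.51, adjusted p = 7.1e-09) and rose in spleen KO (0.13, adjusted p = 0.039). The corepressor gene *Tle3* rose in lung KO (0.30, adjusted p = 0.00234), and *Bcl11b*, a target of TCF-1 in T cells, passed the test in neither organ (adjusted p = 0.18 and 0.899).

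*Emb* (ENSMUSG00000021728, chr13:117208536-117274415, plus strand) encodes embigin, a partner of monocarboxylate transporters that marks immature lymphocytes. It had 85.2 and 82.1 CPM in lung *Wt*, 133.5 and 135.4 CPM in lung KO, 259.5 and 260.1 CPM in spleen *Wt*, and 305.9 and 305.7 CPM in spleen KO. The groups were apart and in the same order as for *Tcf7*, with a range of 3.66-fold between group means. *Emb* rose in lung KO to 1.61 times *Wt* (log2 fold change 0.68, SE 0.06, adjusted p = 8.6e-12) and in spleen KO to 1.18 times *Wt* (0.23, SE 0.04, adjusted p = 1.9e-05). Its exons share 686 bases (9.9%) with *Gm17509*, a gene annotated as protein-coding on the opposite strand, which had 27–793 reads against 317–7982 for *Emb*, and 14.2% of its 50-base words occur in other genes, so its level is uncertain to that extent. *Slc16a1*, which encodes the lactate transporter MCT1, rose in both organs as well (13.3 to 21.3 CPM in lung, log2 fold change 0.78, adjusted p = 0.00011, and 7.95 to 13.1 CPM in spleen, 0.50, adjusted p = 0.0164). *Bsg*, the gene for the embigin relative basigin, rose by 0.11 in spleen KO (adjusted p = 0.0325), with 0.04 in lung (adjusted p = 0.451).

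**Figure D2:**
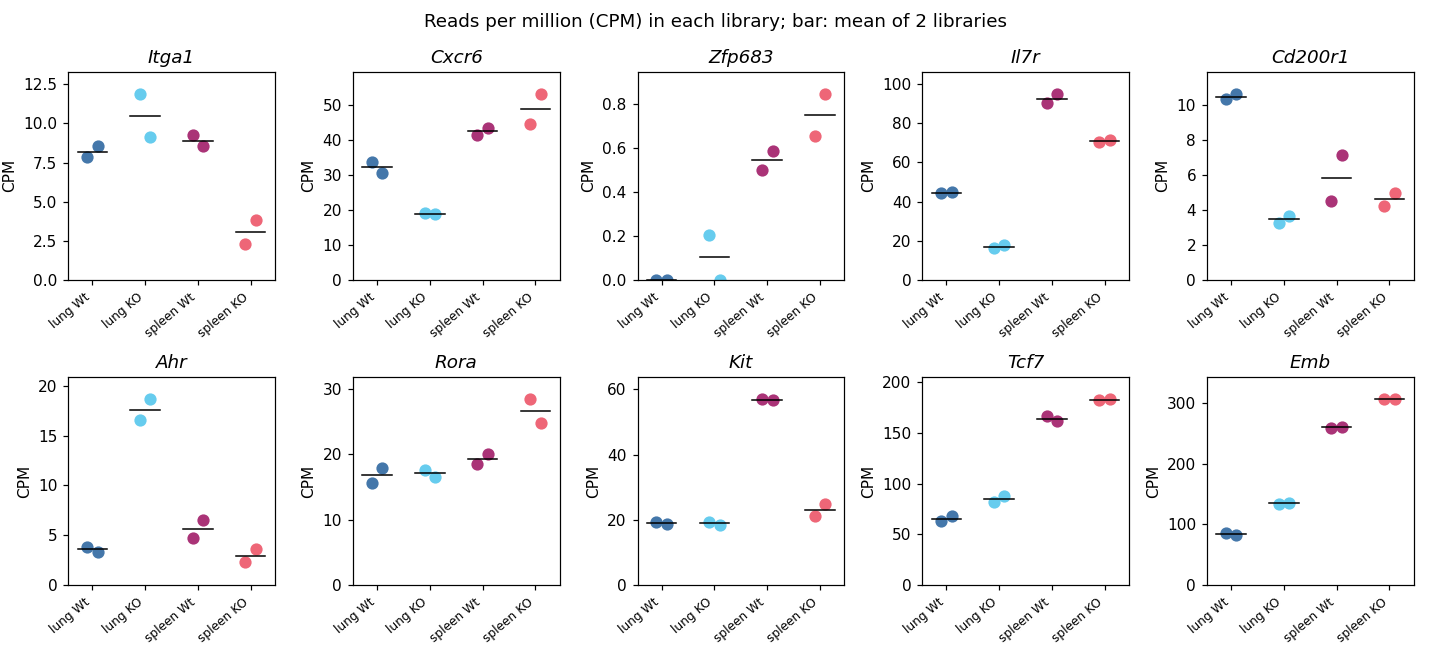
Level in CPM of each of the 10 genes in the 8 libraries. Points are libraries, bars the mean of the 2 libraries of a group, and every axis starts at 0. Lung KO is apart at the top for *Ahr* (16.6 and 18.6 CPM), spleen *Wt* for *Kit* (57.0 and 56.7 CPM), and both spleen groups lie above both lung groups for *Il7r*, *Tcf7* and *Emb*.

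In lung, 6 of the 9 genes tested passed an FDR of 0.05, against 55.6% of all genes. *Ahr*, *Emb* and *Tcf7* were higher in KO (29.2% of all genes) and *Cxcr6*, *Il7r* and *Cd200r1* lower (26.4%). In spleen, 8 of 9 passed, against 57.1% of all genes. *Cxcr6*, *Rora*, *Tcf7* and *Emb* were higher (28.2% of all genes) and *Itga1*, *Il7r*, *Ahr* and *Kit* lower (28.9%). The median log2 fold change of the 9 genes was 0.05 in lung and -0.36 in spleen, beside 0.02 and 0.00 for all genes tested. Among the genes for the receptors of residence, *Cxcr6* and *Cd200r1* fell in lung KO, and *Itga1* was not called there. In spleen KO *Itga1* fell, *Cxcr6* rose and *Cd200r1* was not called. Whether these genes differed from one another was not tested. DESeq2 did not call *Cxcr6*, *Ahr*, *Rora* or *Tcf7* in spleen (adjusted p = 0.251, 0.0828, 0.0862 and 0.114).

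Since so many genes passed, a fit in which a coefficient of variation of 0.2 was assumed was set beside these counts. It called 12.4% of all genes in lung and, of the 9, *Il7r*, *Cd200r1* and *Ahr*. In spleen it called 9.08% of all genes and, of the 9, *Itga1* and *Kit*. These 5 changes were each larger than 2-fold.

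**Figure D3:**
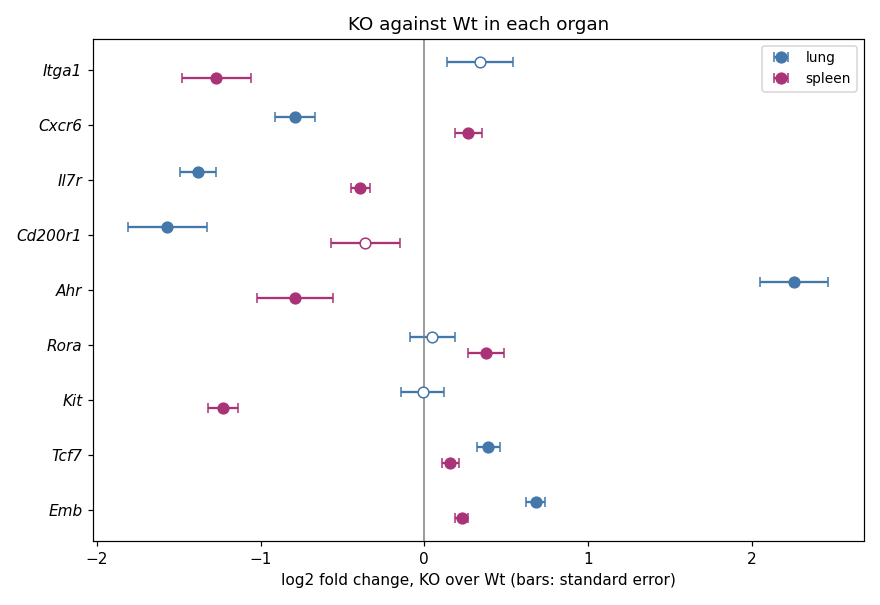
Log2 fold change of KO over *Wt* in lung (blue) and spleen (purple) for the 9 genes tested, with bars of 1 standard error. Filled points passed an FDR of 0.05 and open points did not. *Ahr* lies at 2.26 in lung and -0.79 in spleen, and *Tcf7* and *Emb* lie to the right of 0 in both organs.

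The KO effect itself differed between the organs for 8 of the 9 genes (61.6% of all genes tested), tested as the effect in lung minus the effect in spleen. The difference was above 0 for *Ahr* (3.05, SE 0.33, adjusted p = 2.7e-10), *Itga1* (1.61, SE 0.29, adjusted p = 1e-05), *Kit* (1.22, SE 0.16, adjusted p = 2.4e-08), *Emb* (0.44, SE 0.08, adjusted p = 3.8e-06) and *Tcf7* (0.23, SE 0.09, adjusted p = 0.0221), in a direction that 32.5% of all genes took. It was below 0 for *Cd200r1* (-1.21, SE 0.33, adjusted p = 0.00159), *Cxcr6* (-1.06, SE 0.15, adjusted p = 9.8e-08) and *Il7r* (-0.99, SE 0.13, adjusted p = 1.8e-08), as for 29.0% of all genes. For *Rora* it was -0.33 (SE 0.18, adjusted p = 0.117). *Ahr* and *Cxcr6* passed the test in both organs with opposite signs. Their calls in spleen were lost with DESeq2 (adjusted p = 0.0828 and 0.251). In spleen the value was -0.46 for *Ahr* without spleen *Wt* replicate 2, and 0.06 for *Cxcr6* without spleen KO replicate 2. The value for *Tcf7* turned to -0.09 with the offset for GC content, and that for *Cd200r1* was -1.01 without spleen KO replicate 2 (adjusted p = 0.1). DESeq2 called neither (adjusted p = 0.191 and 0.0542). With the assumed coefficient of variation, *Itga1*, *Ahr* and *Kit* passed, as did 16.0% of all genes. The median over the 9 genes was 0.23, beside 0.03 over all genes.

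The comparisons of lung with spleen use the same libraries as those of KO with *Wt*, and their values are given side by side without a test of likeness. In *Wt*, 7 of the 9 genes differed between the organs (57.0% of all genes). *Cd200r1* was higher in lung (0.74, SE 0.21, adjusted p = 0.00327), as were 27.7% of all genes. *Emb* (-1.63, SE 0.06, adjusted p = 1.3e-24), *Kit* (-1.57, SE 0.11, adjusted p = 1.8e-15), *Tcf7* (-1.33, SE 0.06, adjusted p = 1.1e-19), *Il7r* (-1.07, SE 0.08, adjusted p = 1.5e-14), *Ahr* (-0.69, SE 0.27, adjusted p = 0.0299) and *Cxcr6* (-0.39, SE 0.10, adjusted p = 0.00138) were lower in lung, as were 29.3% of all genes. *Itga1* and *Rora* had values of -0.12 and -0.25 (adjusted p = 0.651 and 0.126). *Rora* passed with the offset for GC content (-0.41, adjusted p = 0.0112) and with library totals (-0.35, adjusted p = 0.027). The residence genes *Itga1* and *Cxcr6* were therefore not found at a higher level in NK1.1+ cells of *Wt* lung than of *Wt* spleen. The residence gene *Cd200r1* was higher in *Wt* lung. Of 19 other tested genes of resident NK cells or ILC1, 8 were higher and 5 lower in *Wt* lung, beside 27.7% and 29.3% of all genes. The *Ahr* call was lost without lung *Wt* replicate 1 (adjusted p = 0.103), lung *Wt* replicate 2 (0.0883) or spleen *Wt* replicate 2 (0.486), and *Cd200r1* was 1.21 without spleen *Wt* replicate 2. DESeq2 did not call *Cxcr6*, *Cd200r1* or *Ahr* (adjusted p = 0.0553, 0.0695 and 0.201). The 9 genes had a median of -0.69, beside -0.01 for all genes. With the assumed coefficient of variation, *Il7r*, *Kit*, *Tcf7* and *Emb* passed, as did 16.0% of all genes.

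In KO, 8 of the 9 genes differed between the organs (65.6% of all genes). *Ahr* (2.36, SE 0.18, adjusted p = 3.1e-14) and *Itga1* (1.49, SE 0.20, adjusted p = 5.1e-08) were higher in lung, as were 33.9% of all genes. *Il7r* (-2.06, SE 0.09, adjusted p = 3.3e-21), *Cxcr6* (-1.45, SE 0.10, adjusted p = 2.8e-15), *Emb* (-1.18, SE 0.05, adjusted p = 1.6e-22), *Tcf7* (-1.10, SE 0.06, adjusted p = 3.2e-19), *Rora* (-0.57, SE 0.11, adjusted p = 3.9e-05) and *Kit* (-0.36, SE 0.11, adjusted p = 0.00476) were lower in lung, as were 31.7% of all genes. *Cd200r1* had a value of -0.47 (SE 0.25, adjusted p = 0.0937). For *Ahr* the sign thus turned between *Wt* and KO, whereas *Il7r*, *Cxcr6*, *Kit*, *Tcf7* and *Emb* were lower in lung in both genotypes. The call for *Kit* was lost without lung KO replicate 2 (-0.32, adjusted p = 0.0843) or spleen KO replicate 2 (-0.16, adjusted p = 0.545), and by DESeq2 (adjusted p = 0.147). The median was -0.57, beside 0.02 for all genes. With the assumed coefficient of variation, *Itga1*, *Cxcr6*, *Il7r*, *Ahr*, *Tcf7* and *Emb* passed, as did 18.4% of all genes.

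**Figure D4:**
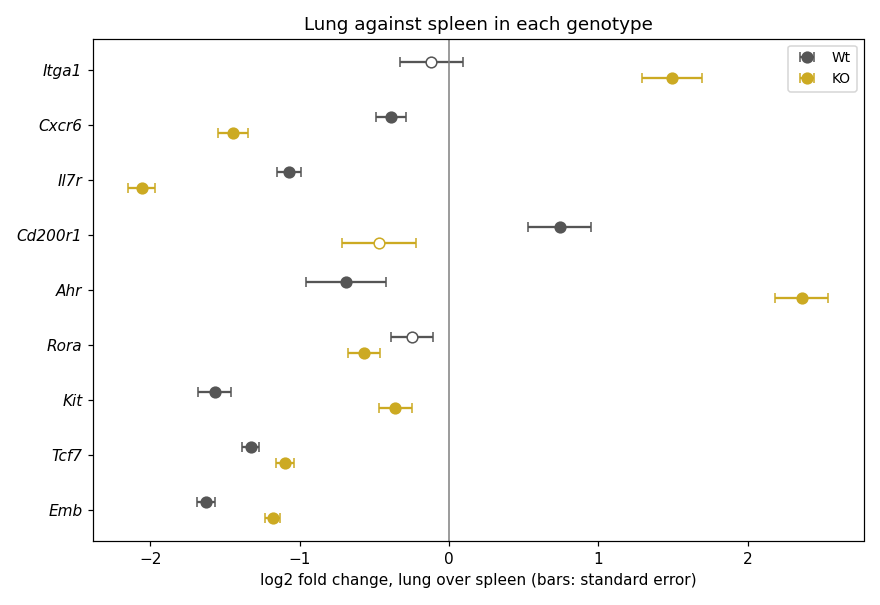
Log2 fold change of lung over spleen in *Wt* (grey) and KO (yellow) for the 9 genes tested, with bars of 1 standard error. Filled points passed an FDR of 0.05 and open points did not. *Ahr* lies at -0.69 in *Wt* and 2.36 in KO, and *Il7r*, *Cxcr6*, *Kit*, *Tcf7* and *Emb* lie to the left of 0 in both genotypes.

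Ordered by group mean, the 9 genes fell into a few patterns. *Tcf7*, *Emb* and *Rora* ran from spleen KO through spleen *Wt* and lung KO to lung *Wt*, with all neighbours apart except the lung groups of *Rora*. *Itga1* and *Ahr* shared the order lung KO, spleen *Wt*, lung *Wt* and spleen KO. For *Itga1*, spleen *Wt* did not differ from either lung group beyond the spread of the libraries, and for *Ahr* lung *Wt* and spleen KO overlapped. *Il7r* and *Kit* were highest in spleen *Wt*, followed by spleen KO. The log2 CPM pattern over the 8 libraries closest to that of *Il7r* among 8516 genes was that of *H2-T22* (Pearson's r = 0.997), to *Tcf7* that of *Klhl6* (0.994), to *Emb* that of *Cd74*, the invariant chain of MHC class II (0.997), to *Cxcr6* that of *Ado* (0.995), to *Rora* that of *Primpol* (0.981) and to *Kit* that of *Cd3e* (0.992). These correlations are descriptions over 8 libraries that share 4 groups. *Cd74* had group means of 34.8, 101.2, 292.6 and 414.5 CPM in lung *Wt*, lung KO, spleen *Wt* and spleen KO. B cell markers were higher in spleen too, with sums of 300–312, 259–262, 553–566 and 656–672 CPM in that order, and none of the 10 at 0 in spleen. The part of B cells in the levels of *Emb* and *Tcf7* was not tested.

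Related genes were counted in the same fits. Over all genes, 29.2% were higher and 26.4% lower in lung KO, and 28.2% higher and 28.9% lower in spleen KO. Of 24 tested binding partners and pathway genes of the 10 genes, 13 were higher and 4 lower in lung KO (median 0.26), and 6 were higher and 8 lower in spleen KO (median -0.02). The 13 include *Nr1d1* and *Slc16a3*, which had no read in lung *Wt*, and *Kitl*, and the 8 include *Nr1d1*. Of 19 other genes of resident NK cells or ILC1, 7 were higher and 4 lower in lung KO (median 0.00), and 4 were higher and 7 lower in spleen KO (median -0.16). Among these *Nr4a1*, an early-response nuclear receptor, rose in lung KO (1.90, adjusted p = 2.2e-21) and fell in spleen KO (-2.22, adjusted p = 6.6e-12), and *Itga4*, the α4 integrin chain, fell in lung KO (-0.37, adjusted p = 2.7e-10) and rose in spleen KO (0.13, adjusted p = 0.00389). Of 20 other genes of immature NK cells, 6 were higher and 7 lower in lung KO (median 0.04), and 9 were higher and 8 lower in spleen KO (median -0.05). *Slamf6*, a receptor of the SLAM family that is high on stem-like lymphocytes, rose in both organs (1.83 and 0.71, adjusted p = 1.4e-10 and 2.5e-09), whereas *Ets1*, a factor of NK development, fell in both (-0.46 and -0.14, adjusted p = 2.1e-13 and 0.00126). Of 20 genes of mature NK cells, 8 were higher and 5 lower in lung KO (median 0.05), and 5 were higher and 9 lower in spleen KO (median -0.02). Several of these counts lay near the shares of all genes, and no list moved in a single direction.

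**Figure D5:**
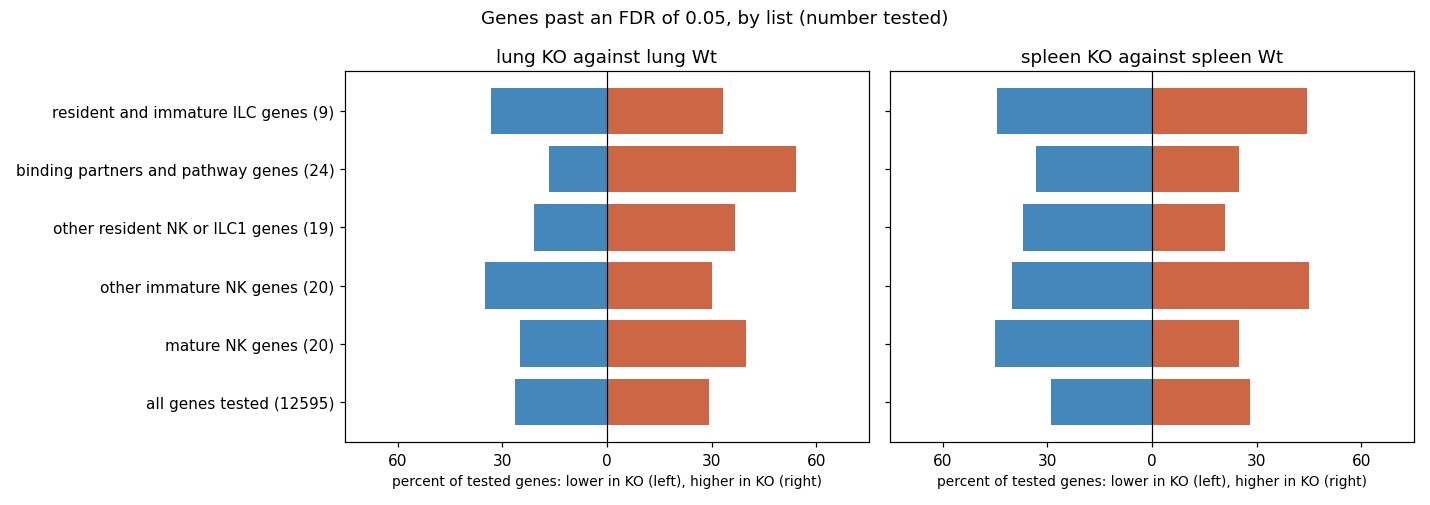
Percent of tested genes past an FDR of 0.05 that were lower (blue, left) or higher (orange, right) in KO, for the 9 resident and immature ILC genes, 4 lists of related genes and all 12595 genes tested, in lung and in spleen. Every list holds genes on both sides of 0, and the number tested stands in brackets. The binding partners counted as higher in lung include *Nr1d1* and *Slc16a3*, which had no read in lung *Wt*.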

How the data were processed

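Sorted NK cells of lung and spleen gave 8 RNA-seq libraries, read to 50 bp. The authors aligned reads to mm10 with HISAT2 (version 2.1.0, as in the submitters' processing notes), counted them on genes with HTSeq (version 0.11.1 in those notes) and deposited raw counts per gene symbol, without normalization. The annotation and the strand setting are not given in the sources used here. Reads that the counting assigned to no gene made up 52.7–55.0% of uniquely aligned reads. Without the strand setting, whether these reads lay outside genes is not known. Groups were taken from the sample titles. No column was left unmapped.

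The counts were modelled with edgeR 4.0.16 (R 4.3.3). Genes were kept by filterByExpr, libraries scaled by TMM, and 1 mean per group fitted to all 8 libraries. Contrasts were tested by edgeR's quasi-likelihood test, adjusted by Benjamini-Hochberg across the 12595 genes, at an FDR of 0.05. Standard errors were derived from the F statistic. CPM use TMM-scaled totals, RPKM the exon length in GENCODE M21 (GRCm38), and 46394 of the 48321 symbols matched that annotation. The GC content was known for 97% of genes tested. The steps were tested on simulated data. The first criterion, on the number of changed genes recovered, was missed and was replaced by one on well-counted genes. Recovery of changes in genes with few reads was thus not held to a criterion.

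The 10 genes and the lists of related genes were chosen with earlier results of these data known. All 10 are named, as is *Ccl5*, with their binding partners, the 2 genes closest in pattern at most, and of other lists the genes of highest level or smallest p. Markers at 0 and *Ccr6*, *Il23r*, *Cldn5*, *Cdh5*, *Cd3d* and *Cd3g* are named beyond that rule, chosen after their values were seen. Alternatives were scaling by RLE, by the upper quartile or by library totals, a filter of none or of 10 counts per library, DESeq2 1.42.0, the likelihood ratio test, an assumed coefficient of variation of 0.2, only the groups compared, a replicate block, an offset for the GC trend (spline, 5 degrees of freedom) with and without the block, an FDR of 0.001, and leaving out each library. Equally numbered libraries deviated together in spleen (r = 0.169 over 5103 genes) but not in lung (-0.0139), so the numbers were not taken to pair them. Promoter sequences came from RefSeq (GRCm38.p6).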

Additional observations from a re-analysis of the deposited data

Results flagged for a closer look

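For 8 of the 9 genes tested, the KO effect in lung and that in spleen differed by a test of the difference itself (edgeR's quasi-likelihood test, FDR 0.05), which 61.6% of all genes also passed. The effect in lung minus that in spleen was 3.05 for *Ahr*, 1.61 for *Itga1*, 1.22 for *Kit*, 0.44 for *Emb* and 0.23 for *Tcf7* on the log2 scale, and -1.21 for *Cd200r1*, -1.06 for *Cxcr6* and -0.99 for *Il7r*. For *Ahr*, *Cxcr6*, *Il7r*, *Tcf7* and *Emb* each organ passed its own test, for *Itga1* and *Kit* spleen passed, and for *Cd200r1* lung passed. The calls of *Ahr*, *Cxcr6* and *Tcf7* in spleen were lost with DESeq2.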

How the results depend on the processing

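Of 881 values of the 9 genes under other settings, 820 kept their direction and their side of the FDR threshold, 49 lost the call, 5 gained it and 7 changed sign. Genes passing an FDR of 0.05 numbered 6 in lung, 8 in spleen, 8 for the difference between organs, 7 for lung against spleen in *Wt* and 8 in KO. With a coefficient of variation of 0.2 assumed they numbered 3, 2, 3, 4 and 6, since a wider spread was set. DESeq2 called 4 in spleen and 4 for lung against spleen in *Wt*, and so did an FDR of 0.001. The causes were not tested for DESeq2. Leaving out 1 library gave 6 in lung, 6–9 in spleen, 6–8 for the difference, 6–7 in *Wt* and 7–8 in KO. Signs changed for *Kit* in lung (0.08 with library totals, and -0.03 to 0.03 on leaving out 1 library), *Rora* in lung (-0.08 without lung *Wt* replicate 1), *Cd200r1* in spleen (-0.56 to 0.12 on leaving out 1 library) and *Tcf7* for the difference between organs (-0.09 with the GC offset, with or without the block). With library totals the median of all genes moved by 0.16 for the difference and by -0.11 for lung against spleen in *Wt*. The replicate block, in libraries that share only a number, changed 1 call, *Ahr* for lung against spleen in *Wt* (-0.61, adjusted p = 0.0568 by edgeR's quasi-likelihood test). With at least 10 counts in every library, *Ahr* and *Itga1* were not tested. Depth limits *Zfp683*, *Itga1*, *Ahr* and *Cd200r1*.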
